A study of Mus musculus with 4 samples.

Results

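The genes described here mostly encode proteins that bind pre-mRNA or build the spliceosome. They were chosen by symbol alone, as the genes whose name starts with Srsf, Hnrnp, Sf3a, Sf3b, Snrp, Prpf or U2af, with Rbm followed by a digit or x, or with Lsm followed by a digit. Of the 11993 genes to which the study linked open chromatin, 95 met this rule. They comprised 10 SR protein genes (Srsf), 15 hnRNP genes (Hnrnp), 10 genes of the SF3 and U2AF factors, 20 genes of the Sm, LSm and other snRNP proteins (Snrp and Lsm), 12 PRP genes (Prpf) and 28 RBM genes (Rbm). Together they were linked to 147 of the 12477 open regions of the study. All are called splicing genes below, also those with other roles, such as Lsm11, whose protein is specific to the U7 snRNP.

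Splicing removes introns from pre-mRNA. The U1 snRNP binds the start of an intron. The U2AF pair and the SF3 subunits of the U2 snRNP mark the end of the intron and its branch point. The U4/U6 and U5 snRNPs then join with their PRP factors, and Sm and LSm proteins form rings on the snRNAs. SR proteins mostly favour the use of an exon and hnRNP proteins often oppose it, so that their balance, together with RBM proteins, sets alternative exons. Most of these genes are expressed in nearly all cells, fat cells included, and many have promoters rich in CpG that are open in most tissues.

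Open chromatin was mapped by ATAC-seq, which uses a transposase to insert adapters wherever DNA is accessible, in nuclei of subcutaneous white adipose tissue. There were 4 libraries from wild-type mice, 2 from males and 2 from females, and the comparison of the sexes is the one the series' title names. The sources used here do not give age or strain. They also leave out whether each library is a different animal. The p-values therefore measure only the spread between these libraries, which may be technical. That spread was pooled over genes by a trend with height, so an SE or a p-value does not show a gene's own spread. The standard errors (SE) of the 95 genes ran only from 0.343 to 0.411. A gene's value was its peak height, that is the scaled tag coverage at a peak, which the authors averaged over all regions assigned to that gene. Peaks were found at 5371 and 4041 merged regions in male 1 and male 2, against 9972 and 7835 in female 1 and female 2. Median heights over all genes were 24.0 and 14.7 in the males and 38 and 30.2 in the females, and on the scale of log2(height + 9) the median difference of all genes was -0.63, male minus female. Differences of single genes are therefore also given relative to that median. The sources used here do not give read totals, and no interval for counting error was computed. Of 12 adipocyte marker genes 8 were linked to a region, while Adipoq, Fabp4, Lep and Plin1 were not. The mixed tissue was measured in bulk, where fewer cells of a type and less open DNA per cell cannot be told apart.

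Open chromatin of the splicing genes lay mostly at their own starts. A region summit lay within 500 bp of the annotated start in 84 of the 95 genes (88.4%), compared with 66.9% of all 11993 genes. At 200 bp these shares were 80.0% and 59.9%. The summit nearest the start was at a median of -39 bp (25th to 75th percentile -92 to 1 bp), just upstream of the start, against -35 bp (-90 to 4 bp) for all genes with a region within 500 bp. It fell between 150 bp upstream and 50 bp downstream in 67 of the 84 genes (79.8%), and in 79.6% of all genes with a start region. The share of genes with a region at the start was thus higher among splicing genes than in the table as a whole, while the place of the summit within the promoter was similar. These shares are descriptions, since the genes were chosen as a list and no test over the list was made. The region nearest the start had a median width of 322 bp in splicing genes and 237 bp in all genes; over all 147 regions of the splicing genes the median was 249 bp, against 195 bp for the 12477 merged regions.

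**Figure D1:**
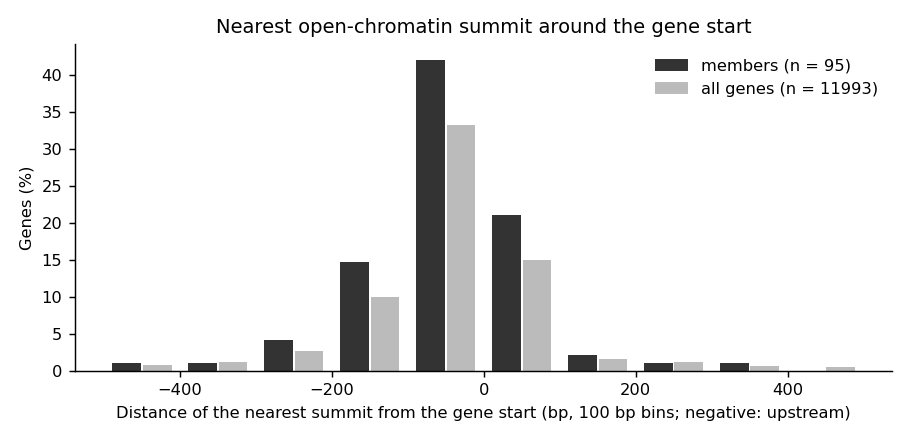
Share of genes (percent) by the distance of the nearest region summit from the annotated start in bins of 100 bp, for the 95 splicing genes (dark) and all 11993 genes (grey). The bin just upstream of the start held 42.1% of the splicing genes and 33.3% of all genes; genes with no summit within 500 bp are not drawn.

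The promoter sequences behind these regions are shown for 1 gene of each family, the member with the highest mean height whose nearest region overlaps its promoter; 1 RBM gene of like height, Rbm27, was passed over. Each is the 250 bases before the RefSeq start in build GRCm38.p6, which carries the same coordinates as mm10, read on the gene's strand. They lie at chr4:131873389-131873638 (plus strand) for Srsf4, at chr2:75659009-75659258 (plus) for Hnrnpa3, at chr1:55027479-55027728 (minus) for Sf3b1, at chr7:19149588-19149837 (plus) for Snrpd2, at chr3:108911730-108911979 (minus) for Prpf38b and at chr9:107771003-107771252 (minus) for Rbm5. Capitals mark the searched motifs on either strand: CCAAT (the CCAAT box, bound by NF-Y), GGGCGG (the GC box, bound by Sp1), CCGGAA (the core of ETS sites), GATGGCGG (YY1 type), TGACG (the core of the cAMP response element, CRE) and CACGTG (the E box).
Srsf4: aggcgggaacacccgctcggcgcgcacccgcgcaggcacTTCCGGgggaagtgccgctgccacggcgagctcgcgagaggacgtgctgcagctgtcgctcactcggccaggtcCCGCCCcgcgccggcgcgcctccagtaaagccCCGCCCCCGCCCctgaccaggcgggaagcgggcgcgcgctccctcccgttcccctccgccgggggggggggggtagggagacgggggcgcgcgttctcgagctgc
Hnrnpa3: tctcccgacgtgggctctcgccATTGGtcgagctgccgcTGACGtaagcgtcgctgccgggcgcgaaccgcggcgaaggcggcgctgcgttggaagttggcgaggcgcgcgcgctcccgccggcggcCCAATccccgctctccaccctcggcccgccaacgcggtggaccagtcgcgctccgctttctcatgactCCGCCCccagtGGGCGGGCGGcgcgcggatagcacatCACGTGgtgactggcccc
Sf3b1: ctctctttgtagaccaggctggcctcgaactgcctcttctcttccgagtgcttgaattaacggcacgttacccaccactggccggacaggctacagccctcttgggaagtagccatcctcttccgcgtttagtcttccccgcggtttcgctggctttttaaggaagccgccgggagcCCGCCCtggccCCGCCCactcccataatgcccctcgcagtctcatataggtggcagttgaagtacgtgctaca
Snrpd2: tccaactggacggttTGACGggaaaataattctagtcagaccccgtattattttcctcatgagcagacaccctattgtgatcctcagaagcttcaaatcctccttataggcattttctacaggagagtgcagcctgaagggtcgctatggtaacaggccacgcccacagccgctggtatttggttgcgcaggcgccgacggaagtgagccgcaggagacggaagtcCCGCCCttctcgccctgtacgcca
Prpf38b: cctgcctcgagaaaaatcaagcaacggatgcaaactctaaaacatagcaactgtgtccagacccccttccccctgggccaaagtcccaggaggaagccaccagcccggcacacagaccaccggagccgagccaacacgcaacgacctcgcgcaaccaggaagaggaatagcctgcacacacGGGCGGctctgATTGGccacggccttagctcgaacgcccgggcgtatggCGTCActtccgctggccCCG
Rbm5: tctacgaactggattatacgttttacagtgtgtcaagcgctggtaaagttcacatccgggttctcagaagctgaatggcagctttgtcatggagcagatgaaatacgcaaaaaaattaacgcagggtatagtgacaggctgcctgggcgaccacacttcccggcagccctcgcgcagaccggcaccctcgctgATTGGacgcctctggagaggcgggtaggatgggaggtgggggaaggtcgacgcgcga

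All 250 bases of the Srsf4 and Snrpd2 promoters lay within the open region at the start, as did 235 bases for Hnrnpa3, 180 for Rbm5, 150 for Sf3b1 and 123 for Prpf38b, whose RefSeq start is 25 bp from the start in the deposited table. The Srsf4 promoter had 3 GC boxes in these bases, at -137, -105 and -99 from the start, and an ETS core at -211. Hnrnpa3 held the densest set, with CCAAT boxes at -228 and -123, GC boxes at -55, -44 and -40, a CRE core at -211 and an E box at -18. Rbm5 had 1 match, a CCAAT box on the other strand at -57. The Prpf38b promoter carried a CCAAT box at -58, a GC box at -69 and a CRE core at -20, and its YY1-type match began at -3 and ran over the start. A match describes letters only and is not evidence of binding.

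RefSeq promoters of 300 bases, 250 before and 50 after the start, were matched by gene ID to 80 of the 95 genes and to 9165 genes of the table, and 27025 promoters were available in all. The CRE core was present on either strand in 48.8% of the splicing gene promoters, in 31.8% of those of the table's genes and in 20.7% of all promoters. ETS cores stood in 41.2%, 29.2% and 15.1% of these sets, and CCAAT boxes in 50%, 39.8% and 37.8%. GC boxes were at 62.5% in splicing genes and 65.3% in the table's genes, both above the 35.6% of all promoters. Among genes with a region within 500 bp, the shares in splicing genes (n = 74) and in all genes (n = 6506) were 51.4% and 36.5% for the CRE core, 40.5% and 34.7% for the ETS core, 50% and 43.1% for the CCAAT box, and 62.2% and 72.9% for the GC box. The full CRE, TGACGTCA, which contains the core, was found in 2 of the 80 promoters (2.5%), those of Snrpa and Snrpg, and in 3.23% of the table's genes. TATAAA, the TATA box, stood in 11.2% of splicing gene promoters and 6.61% of the table's, the YY1-type motif in 7.5% and 3.75%, the E box in 12.5% and 9.87%, and the NRF1 motif in 0 of 80 and 2.13%. The median GC content of the splicing gene promoters was 60.3%, against 61.0% in the table's genes, while the observed over expected CpG ratio was 0.90 against 0.77, and 0.38 over all promoters. By family the median CpG ratio ran from 0.80 in the RBM genes to 1.07 in the hnRNP genes.

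**Figure D2:**
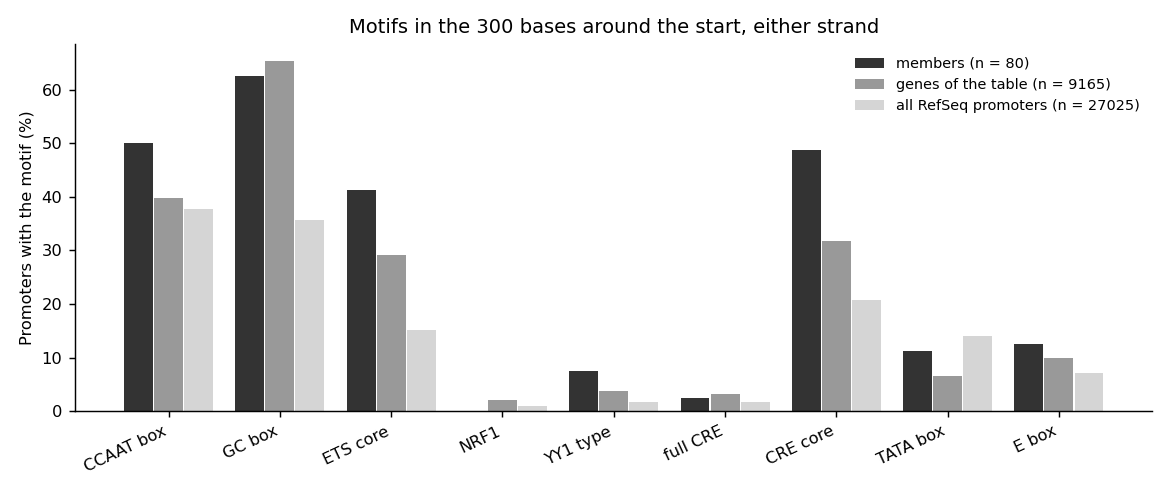
Percent of promoters (300 bases around the RefSeq start) with each motif on either strand, for the splicing genes (n = 80), the genes of the table (n = 9165) and all RefSeq promoters (n = 27025). The CRE core and the ETS core show the widest gaps between splicing genes and the table's genes among the motifs with a higher share in splicing genes, 48.8% against 31.8% and 41.2% against 29.2%.

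Many of these regions were linked to a neighbouring gene as well. A divergent gene, transcribed the other way from a start within 1000 bp, was present at 23 of the 95 splicing genes (24.2%) and at 15.8% of all genes; among genes with a start region the shares were 26.2% and 21.7%. The shortest gaps were 15 bp between Rbm7 and Gm5617, 61 bp between Sf3a1 and Ccdc157, and 64 bp between Srsf11 and Lrrc40. Prpf4 lay 160 bp from Cdc26, which encodes a subunit of the anaphase-promoting complex, Prpf38a 118 bp from Orc1, of the origin recognition complex, and Lsm3 147 bp from Xpc, a DNA repair gene. In all, 34 splicing genes (35.8%) had the same regions as another gene and hence the same heights, against 39.5% of all genes, and 74 (77.9%) shared at least 1 region, against 67.1%. For these genes the height cannot be assigned to 1 of the neighbours. Within the set, Rbm4 and Rbm14 had the same region, which left 94 separate measurements, and Rbm5 and Rbm6 shared the start region of Rbm5.

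The other 11 genes had no region within 500 bp of their start, and for 7 of them another linked gene was nearer. Lsm12 was linked to a region at the start of G6pc3, which encodes a glucose-6-phosphatase, Lsm2 to one at Hspa1a, a heat shock gene, Snrpd1 to one at Esco1, and Lsm5 to one at Avl9. Rbm14 carried the region at the start of Rbm4, 17554 bp downstream of its own start. The region of Rbm3, the gene of a cold-induced RNA-binding protein, lay 644 bp from the start of Wdr13, and that of Hnrnpul2 lay 1188 bp from Gng3. Rbm20, which encodes a regulator of titin splicing in heart muscle, had its region 97126 bp inside the gene, and Rbm47 had its own at 39636 bp. Hnrnpf, the gene of a protein that binds G-rich RNA, had regions 6412 bp downstream of the annotated start, and the nearest of them contained another of its 4 RefSeq starts. Prpf4b, which encodes a kinase of the spliceosome, had its region at -1094 bp, upstream of the start. Heights given below for Lsm12, Lsm2, Snrpd1, Lsm5, Rbm14, Rbm3 and Hnrnpul2 are thus heights of DNA nearer to another gene.

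A peak was found in all 4 libraries for 51 of 95 splicing genes (53.7%) and 35.9% of all genes, and for 56.0% and 41.1% of those with a region within 500 bp. In male 1 and male 2, 73 and 65 of the 95 genes had a peak (76.8% and 68.4%, against 61.2% and 49.1% of all genes). In female 1 and female 2, 89 and 74 had one (93.7% and 77.9%, against 89.7% and 76.7%). Peaks in both females and neither male were linked to 4 genes (4.21%), against 11.7% of all genes, and peaks in both males and neither female to 1 gene, Rbm33 (1.05%, against 0.475%). Over single regions, those at a start of a splicing gene or of a neighbour were in all 4 libraries in 39% to 44.8% of cases, and the 27 regions at neither in 11.1%. A missing peak did not mean a height of 0: no splicing gene was at 0 in any library, and the lowest height was 4.41, for Rbmx in male 2. Srsf4 had no peak in male 2 at a height of 49.2, above the median of 19.8 over splicing genes with 1 region and a peak in that library. Calls therefore describe the caller's threshold in each library, and the heights are used below.

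Heights followed the order of the libraries in every family. The 95 genes had median heights of 26.9 in male 1 and 17.3 in male 2, against 42.0 in female 1 and 32.5 in female 2. Male 2 was the lowest library and female 1 the highest, as for all genes. The median ratio to female 1 was 0.632 in male 1 and 0.387 in male 2 over the splicing genes, and 0.617 and 0.376 over all genes. Median heights in male 1 and male 2 against female 1 and female 2 were 24.9 and 19.5 against 37.8 and 29.7 for SR genes, and 27.6 and 19.6 against 44.0 and 36.2 for hnRNP genes. For SF3 and U2AF genes they were 25.4 and 15.6 against 41.8 and 31.9. The Sm, LSm and snRNP genes had 28.1 and 18.4 against 47.2 and 38.5. PRP genes had 28.6 and 20.2 against 41.5 and 32.5, and RBM genes 24.7 and 14.7 against 38.8 and 30.8. The mean height over the 4 libraries was above the median of all genes in 58 of the 95 genes (61.1%). Male 2 stood apart in another way: across the 95 genes its heights had rank correlations of 0.600 to 0.648 with the other 3 libraries, which correlated with each other at 0.808 to 0.849. These are correlations across genes, which share regions and library depth, and over all genes they were 0.584 to 0.643 and 0.822 to 0.850.

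**Figure D3:**
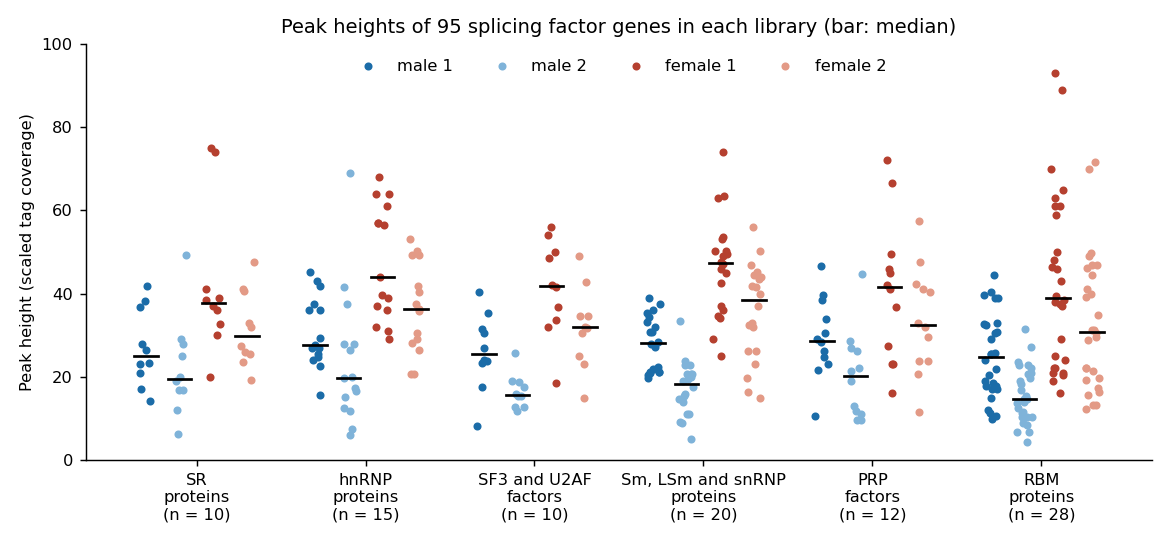
Peak height (scaled tag coverage) of each splicing gene in male 1, male 2, female 1 and female 2, by family; points are genes and black bars are medians. In each family male 2 has the lowest median and female 1 the highest, from 14.7 in male 2 to 38.8 in female 1 for the RBM genes and from 18.4 to 47.2 for the Sm, LSm and snRNP genes.

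Between the sexes, no splicing gene passed the test, and the heights of the set differed by about as much as those of the table as a whole. The median log2 difference, male minus female, was -0.62 over the 95 genes and -0.63 over all genes, a relative difference of 0.01. In limma over all genes, 0 of 95 splicing genes were called lower in males at a Benjamini-Hochberg adjusted p under 0.05, where 71 of 11993 genes (0.592%) were called, and 0 were called higher, where 0 genes (0%) were called. The smallest adjusted p of a splicing gene was 0.0992. Of the 95 log2 differences 93 were below 0, the exceptions being Prpf19 and Rbm33. At an unadjusted p under 0.05, 24 splicing genes (25.3%) were lower in males against a background of 31.4%, and 0 were higher against 0.00834%. Both males were below both females in 74 of 95 genes (77.9%, background 76.4%), and both were above them in 0 (background 0.35%); in the other 21 genes the sexes overlapped. Each of these shares was near its background, and none is a result about the splicing genes. The count of 0 rested on male 1, as given further below, and on the variance setting. Without male 1 the median difference of all genes was -0.86, and without male 2 it was -0.40. Without the trend in variance, limma called 2 of the 95 genes lower (2.11%), Rbm27 and Rbm5, against 3.47% of all genes. With each library centred on the median of all genes, 45 of the 95 differences were below 0, no gene of the table was called, and 3 splicing genes (3.16%) were lower and 5 (5.26%) higher at an unadjusted p under 0.05, against 3.64% and 4.39% of all genes.

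**Figure D4:**
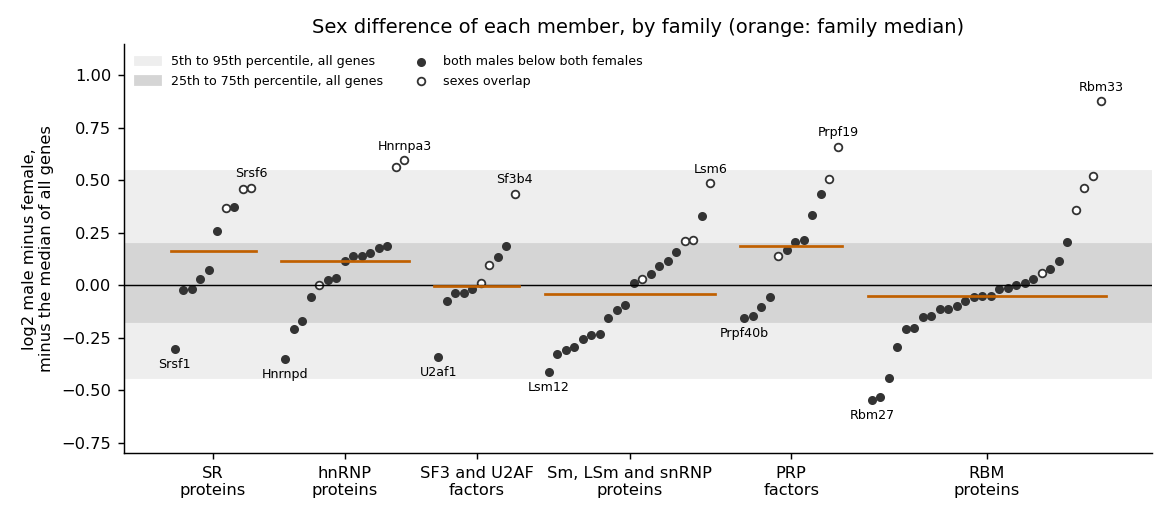
Log2 difference of each splicing gene, male minus female, relative to the median of all genes, by family; filled points are genes with both males below both females and open points genes whose sexes overlap, and grey bands span the 25th to 75th and the 5th to 95th percentile of all genes. The genes run from -0.55 (Rbm27) to 0.88 (Rbm33) around a median of 0.01.

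Among the SR genes the relative differences ran from -0.30 for Srsf1 to 0.47 for Srsf6, with a median of 0.17, and both males were below both females in 7 of 10. These ends moved with the male libraries: the relative difference of Srsf1 was -0.55 without male 1 and -0.05 without male 2, and that of Srsf6 was 0.90 and 0.04. Srsf1, a founding SR protein and a binder of exonic enhancers, had heights of 20.9 and 6.24 in male 1 and male 2, against 38.5 and 25.9 in female 1 and female 2. Male 2 was far below the other libraries and the sexes did not overlap. The log2 difference was -0.93 (SE 0.37, limma adjusted p = 0.117). These heights average 2 regions, and the one 11610 bp from the start of Srsf1 had peaks in the females alone. At its own start the summits were 24.0 in male 1 against 51.0 and 25.5 in the females, with no peak in male 2. Srsf4, which had the highest mean of the family and the GC boxes shown above, had 38.2 and 49.2 in the males against 74.0 and 32.9 in the females. Here female 2 was the lowest library and the sexes overlapped (log2 difference -0.17, adjusted p = 0.723). Srsf6 also overlapped between the sexes, with 17 and 25 in the males against 30.0 and 19.3 in the females, and had a peak in female 1 alone. Srsf2, whose protein marks nuclear speckles, had 41.7 and 29.0 in the males against 75 and 47.7 in the females, from 2 regions, and Srsf7 had 23.3 and 16.9 against 41.0 and 32.1. Both had relative differences of -0.02, close to the median of all genes. The Srsf2 heights include a region 9335 bp from its start, at the start of Jmjd6. In the region near the Srsf2 start the summits were 38.2 and 27.2 in the males against 63.0 and 27.1 in the females. There female 2 was level with male 2 and below male 1.

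The hnRNP genes held the gene with the highest male 2 height of the set. Hnrnpa3, a relative of the splicing repressor Hnrnpa1 and the promoter with the most motifs above, had 43.1 and 69.0 in male 1 and male 2, against 64.0 and 49.3 in female 1 and female 2. The males lay on either side of the females, with means of 56.1 ± 18.3 in males and 56.7 ± 10.4 in females (SD, n = 2 each). Hnrnpab showed the same order, with 24.7 and 37.4 in the males against 36.0 and 29.2 in the females, and relative differences were 0.60 for Hnrnpa3 and 0.56 for Hnrnpab. They rested on male 2: without it they were 0.07 for Hnrnpa3 and 0.10 for Hnrnpab, and without male 1 they were 1.12 and 1.03. At the other end, Hnrnpd, whose protein AUF1 binds AU-rich mRNA, had 41.7 and 11.7 in the males against 61.0 and 49.3 in the females. Male 2 was at the bottom by a wide gap and had no peak there; the log2 difference was -0.98 (SE 0.40, adjusted p = 0.125), and its relative difference of -0.35 was 0.06 without male 2 and -0.76 without male 1. Hnrnpa0 had 29.3 and 15.1 in the males against 56.5 and 35.8 in the females, and the X-linked Hnrnph2, whose start is 281 bp from that of Gla, had 15.6 and 7.34 against 32.0 and 20.6. In Hnrnpf the males were close to each other at 37.5 and 41.5, below the females at 64.0 and 53.0. Hnrnpul2 had 22.6 and 5.87 in the males against 29.0 and 20.6 in the females, and the sexes overlapped. In all, both males were below both females in 12 of 15 hnRNP genes, and the median relative difference was 0.12.

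Genes of the factors that recognise the end of an intron stayed near the median of all genes, with a median relative difference of -0.00 and both males below both females in 7 of 10. U2af1, the subunit that reads the AG at the end of the intron, differed most, with 23.7 and 17.6 in the males against 48.5 and 48.9 in the females. The females were nearly equal and both well above the males, at means of 20.7 ± 4.28 in males and 48.7 ± 0.29 in females (SD, n = 2 each). The log2 difference was -0.97 (SE 0.40, limma adjusted p = 0.124). These heights average 2 regions, that at its own start and one 21506 bp away at the start of Cbs. At its own start the summits were 30.4 and 23.5 in the males against 79.0 and 69.9 in the females. The region at Cbs had a peak in female 2 alone. Its partner U2af2, which binds the polypyrimidine tract, had 23.3 and 15.4 in the males against 42.0 and 32.1 in the females, a relative difference of -0.08. Sf3b1, the SF3b subunit that holds the branch point, had 35.3 and 25.7 in the males against 50 and 42.7 in the females, and no peak in male 2. The sexes were apart but the relative difference was 0.13. Other SF3b subunits had lower or more scattered heights. Sf3b2 had 17.4 and 12.7 in the males against 33.7 and 24.9 in the females, averaged over 3 regions. At its own start the summits were higher, 24.7 and 23.5 in the males against 49.0 and 37.0 in the females. Its other regions, 16820 and 22165 bp away, had a peak in female 1 alone. Sf3b4 had 26.9 and 19.1 against 32.0 and 23, and Sf3b5 had 40.3 and 15.4 against 56.0 and 34.5. In both of these male 1 was above female 2. Sf3b3, the lowest of the named subunits, had 8.13 and 11.7 in the males against 18.5 and 14.8 in the females. These heights average 2 regions, that at its start, with a peak in male 2 alone, and one 45801 bp away.

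The Sm, LSm and snRNP genes had both males below both females in 16 of 20 (background 76.4%), and a median relative difference of -0.04. At an unadjusted limma p under 0.05, 7 of these 20 were lower in males, against 31.4% of all genes. That count was 1 of 10 in SR genes, 3 of 15 in hnRNP genes, 1 of 10 in SF3 and U2AF genes and 2 of 12 in PRP genes. Snrpd3 and Snrpd2, 2 proteins of the Sm ring around spliceosomal snRNA, had the highest means. Snrpd3 had 35.3 and 19.8 in the males against 63.0 and 55.9 in the females, a log2 difference of -0.94 (SE 0.41, adjusted p = 0.135). Snrpd2 had 37.5 and 22.8 in the males against 74.0 and 50.1 in the females. Snrpd1, linked to the Esco1 start, had 28.3 and 15.4 against 37.0 and 26.3, and there male 1 was above female 2. Lsm4, of the LSm ring on U6, had 30.7 and 15.8 in the males against 63.5 and 41.9 in the females, with no overlap. Lsm12, which was measured at the G6pc3 start, had 19.8 and 5.14 in the males against 45.0 and 23 in the females; its log2 difference of -1.04 (adjusted p = 0.0992) describes that region. At the other end, Lsm1, of the cytoplasmic LSm ring that aids mRNA decapping, had 27.9 and 33.4 in the males against 42.5 and 37.0 in the females, and Lsm6 had 21.9 and 14.0 against 25 and 16.4. Male 2 was above male 1 in Lsm1, the 1 gene of these 20 where this was so. Lsm2 and Lsm5 carried a neighbour's region: Lsm2 had 20.5 and 14.7 in the males against 29.0 and 26.3 in the females, and Lsm5 had 38.9 and 20.6 against 49.0 and 45.2.

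PRP genes had the highest family median, 0.19 relative to all genes, with both males below both females in 9 of 12. Prpf19, the ubiquitin ligase of the complex that activates the spliceosome, had 26.2 and 19.1 in the males against 23 and 20.6 in the females, from a region 1 bp from its start with a peak in every library. The males lay on either side of the females, at means of 22.6 ± 4.99 in males and 21.8 ± 1.73 in females (SD, n = 2 each), and the log2 difference was 0.03 (SE 0.37, adjusted p = 0.944). Prpf38b had 30.4 and 44.8 in the males against 42.0 and 40.3 in the females, again with male 2 the highest library. Prpf40b, whose protein is related to a U1-associated factor of yeast, had 28.3 and 9.55 in the males against 41.0 and 32.1 in the females. Prpf40b had no peak in either male and was, with Rbm19, Sf3a3 and Srsf4, 1 of the 4 genes with peaks in both females and neither male; its relative difference of -0.16 was 0.12 without male 2 and -0.42 without male 1. Prpf3, of the U4/U6 snRNP, had 29.0 and 11.7 in the males against 46.0 and 32.9 in the females. Prpf4b had 39.6 and 21.3 against 72.0 and 41.1, where male 1 was close to female 2.

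The RBM genes included both ends of the set, with both males below both females in 23 of 28 (background 76.4%). Their median relative difference was -0.05, and 10 of the 28 were lower at an unadjusted limma p under 0.05, against 31.4% of all genes. Rbm27 (gene ID 225432, chromosome 18), whose protein takes part in nuclear RNA turnover, had 39.6 and 23.5 in male 1 and male 2 against 93.0 and 69.9 in female 1 and female 2. It shares its region with Gm4013, whose start is 156 bp away. Means were 31.5 ± 11.4 in males and 81.4 ± 16.4 in females (SD, n = 2 each), the sexes were far apart, and the log2 difference was -1.17 (SE 0.41, adjusted p = 0.0992). Rbm5 (gene ID 83486), which regulates alternative splicing of apoptosis genes, had 44.5 and 20.6 in the males against 89.0 and 71.5 in the females, at chr9:107770956-107771182 (mm10). Its log2 difference was -1.16 (SE 0.41, adjusted p = 0.0992), and male 2 had no peak there. Rbm6, the related gene 101817 bp away, had 32.8 and 13.7 in the males against 63.0 and 49.0 in the females. The region at its own start, which it does not share with Rbm5, had summits of 43.8 in male 1 against 83.0 and 65.8 in the females and no peak in male 2.

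At the upper end, Rbm33 had 24.0 and 14.7 in the males against 16 and 13.2 in the females. It had peaks in the males alone, yet male 2 was below female 1, so the sexes overlapped (log2 difference 0.25, SE 0.36, adjusted p = 0.549). Rbm47, whose protein is a cofactor of Apobec1 in RNA editing, had 20.5 and 12.5 in the males against 19.0 and 17.3 in the females at its intragenic region. Rbm4 and Rbm14, with 1 region between them, had 38.9 and 22.8 in the males against 61.0 and 46.9 in the females, a relative difference of -0.05. Rbm20 had 17.7 and 6.61 against 22 and 19.7, and Rbm3 had 12 and 10.3 against 37.0 and 15.6. In Rbm3 female 1 was far above the other 3 libraries. Rbm12b1 and Rbm12b2 are near copies of each other, and the sources used here do not give how reads that match both were placed.

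**Figure D5:**
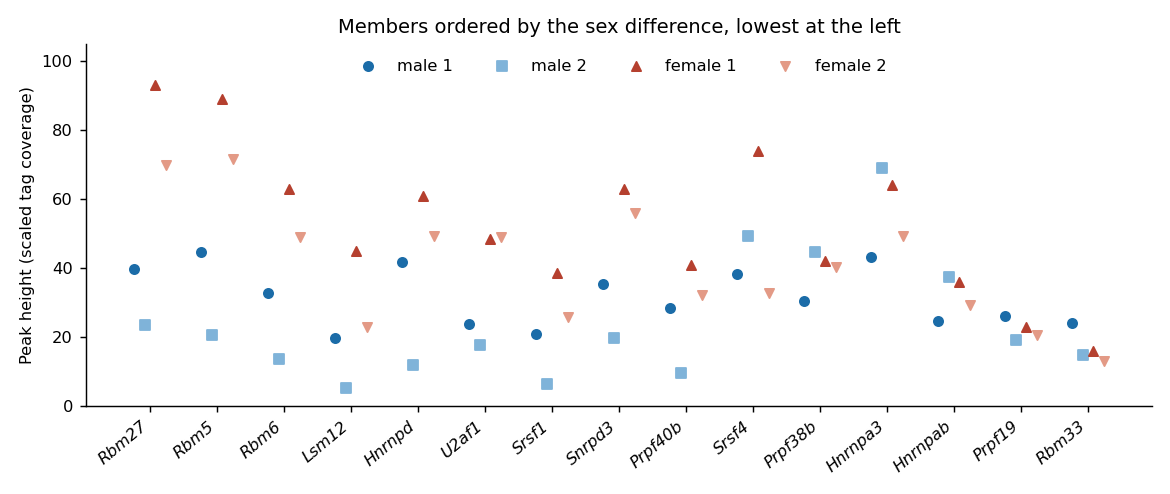
Peak height (scaled tag coverage) in each of the 4 libraries for 15 splicing genes, placed roughly by the log2 difference, male minus female, lowest at the left. The order departs from this at Srsf1 and Snrpd3 (-0.933 and -0.935) and at Hnrnpa3 and Hnrnpab (-0.03 and -0.07), where the later gene is lower. The males lie below the females from Rbm27 to Prpf40b, and the sexes overlap from Srsf4 to Rbm33; at Hnrnpa3 male 2 is the highest library, at 69.0.

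Of the splicing genes outside these families, none passed the test either. Of 102 listed genes, among them kinases, exon junction proteins and the SMN complex, 87 were linked to a region; limma called 0 lower and 0 higher in males, 15 (17.2%, background 31.4%) were lower with an unadjusted p under 0.05, and no adjusted p was below 0.0945. Their median relative difference was 0.02, both males were below both females in 67 (77%, background 76.4%), and 43 (49.4%, against 35.9% of all genes) had a peak in every library. Pcbp2, a poly(C)-binding protein, had 40.3 and 18.4 in the males against 77.0 and 73.2 in the females, a log2 difference of -1.19. Crnkl1, a scaffold of the active spliceosome, had the highest difference of this list, with 29.7 and 36.0 in the males against 24.0 and 27.1 in the females; both males were above both females, but the log2 difference of 0.27 did not pass the test (adjusted p = 0.55).

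Heights at markers of cell types also differed between the libraries. Summed heights of the 8 adipocyte genes linked to a region were 198 and 118 in the males against 348 and 304 in the females, with both males below both females in 7 of 8, 0 called, and a median relative difference of -0.19. Only 4 of the 8 had a region within 500 bp of their start. Of the other lists, 3 of 6 fibroblast and progenitor genes, 2 of them with a start region, summed to 31 and 20 in the males against 82 and 71 in the females, with a median relative difference of -0.40. The 3 of 5 endothelial genes, 1 with a start region, summed to 33 and 27 against 76 and 55, with a median of -0.00. Leukocyte, epithelial and muscle lists had 1 linked gene each, Cd79a, Cldn3 and Mb, with 0 called and relative differences of -0.15, -0.57 and -0.58. The regions of Cd79a, 6745 bp from its start, and of Mb, 13772 bp from its start, are shared with Arhgef1 and Apol6. The part of cell makeup in the heights of the splicing genes was not tested.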

How the data were processed

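Fat was frozen and ground, nuclei were tagged with Tn5, and PCR ran for 10 cycles, per the labels' protocols. The submitters' processing notes name BWA, MACS2 2.1.0 and mm10. Read filters, duplicate handling, the Tn5 shift and BWA's version: not given in the sources used here. Per the file headers, the authors called peaks in each library, merged them, and deposited for each gene the mean signal (tag coverage at the peak) of its regions. The female heights and the summit values have decimal commas and are recorded under another unit, but were read as the same deposited signal. In genes with 1 region, 100% of heights were whole multiples, to within 2% of a step, of 0.707 in male 1, 0.734 in male 2, 1.0 in female 1 and 0.822 in female 2; a factor per library had thus been applied, and its origin is unknown here. Coverage is not a read number, so no count test was used. Unused per-library columns numbered 0.

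The pseudocount of 9 added before log2 was the 5th percentile of non-zero heights, rounded up. The sexes were compared, male minus female, with limma's trend method (version 3.58.1, R 4.3.3) over all 11993 genes (Benjamini-Hochberg threshold 0.05; all genes were above 0 in at least 2 libraries). On this scale changes of low genes are understated. An exact permutation test of 2 against 2 libraries cannot go below a two-sided p of 0.33. The fit was tested on simulated data. Members, lists and tests were chosen with earlier results of these data known. Named were, in each family, the 3 lowest and 2 highest differences, the 2 highest mean heights, and every gene without a region within 500 bp of its start; genes drawn or named for a neighbour, a peak call or a shared region were chosen after their values were seen. The result of 1 gene that met this rule is not reported here. Alternatives covered the pseudocount, filters, scaling between libraries, the variance setting, a replicate block, a row per set of regions, each library left out, the start window and the motif strand. Promoters are from RefSeq (GRCm38.p6), and none from chromosome 18 was shown; positions count from 1, and a base before the start is negative. Python 3.11.15, pandas 2.3.3, numpy 2.4.6 and matplotlib 3.10.9 were used.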

Additional observations from a re-analysis of the deposited data

How the results depend on the processing

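The count of splicing genes called lower in males was 0 in the fit as reported and under the other pseudocounts, filters and scalings and a row per set of regions. It was 2 with no trend, 53 with the replicate block (55.8%, against 57.7% of all genes) and ranged from 0 to 50 with a library left out, 50 without male 1; no setting called a splicing gene higher. Over all genes 71 were called lower, 0 when genes with low mean heights were dropped (up to the 25th percentile), with centred libraries and with quantile normalization, 416 with no trend, 6918 with the replicate block, and 0 to 6391 with a library left out (0 without male 2, 19 without female 1, 64 without female 2). For the other splicing genes the counts were 1 with no trend, 51 with the block and 0 to 44 with a library left out. The replicate numbers do not pair the libraries in the labels, so the block is given here only. Deviations of same-numbered libraries correlated at 0.0166 across genes, a value that cannot show a shift shared by all genes. Over all genes the median ratio was 1.63 for male 1 to male 2 and 1.27 for female 1 to female 2. With a library left out, the lone sample of its sex is assumed to vary like the other sex. Without male 1 the median difference of all genes was -0.86, and the median relative difference of the splicing genes was 0.004. The calls of that setting are therefore not a result about the splicing genes. Counts of the other splicing genes are likewise to be read against those of all genes in the same setting. The cause of the changes in these counts was not tested.

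The median relative difference of the splicing genes was 0.055 at a pseudocount of 1. Of 516 alternative values for 41 named genes, 443 kept direction and side of the threshold, 42 newly passed it and 31 changed sign, at 3 decimals: at a pseudocount of 1 Hnrnpul2 (-0.160), Rbm14 (0.014), Rbm20 (-0.036) and Srsf2 (0.072); at 4 times the pseudocount Lsm5 (-0.008) and Sf3b5 (-0.018); without low genes Srsf7 (0.005); with quantile normalization Hnrnpul2 (-0.048) and Srsf2 (0.002). With a library left out, the relative differences that changed sign ranged from -0.089 to 0.057 for Srsf7, -0.128 to 0.056 for Sf3b2, -0.259 to 0.288 for Sf3b5, -0.071 to 0.236 for Rbm20, -0.059 to 0.170 for Lsm5, -0.429 to 0.203 for Rbm3, -0.758 to 0.064 for Hnrnpd. The other ranges were -0.136 to 0.450 for Hnrnpf, -0.181 to 0.562 for Sf3b3, -0.424 to 0.116 for Prpf40b, -0.346 to 0.060 for Prpf3, -0.315 to 0.108 for Prpf4b, -0.113 to 0.013 for Rbm14, -0.173 to 0.125 for Srsf2, -0.001 to 0.666 for Lsm1, -0.307 to 0.314 for Hnrnpul2. In 33 of the 41 genes the relative difference moved by over 1.5 times, or changed sign, with at least 1 library left out; it did not in the other 8. Genes that share at least 1 region numbered 74. On the gene strand alone, motif shares were 31.2% for CCAAT, 35% for the GC box, 25% for the ETS core and 31.2% for the CRE core. Start regions numbered 76 within 200 bp and 84 within 1000 bp, and peaks in all remaining libraries 51 to 63. Read totals are unknown here, so the limits that depth sets could not be computed; male 2 had the fewest peaks.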

Other observations

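The 4 X-linked splicing genes, Rbm3, Rbm10, Rbmx and Hnrnph2, were lower than the rest of the set. Their median of mean heights was 17.6, against 31.2 for the 91 autosomal splicing genes, and 0 of the 4 had a peak in all 4 libraries, against 51 of 91. Over the table, the 256 X-linked genes had a median of 20.1 and the 11736 autosomal genes 27.1. A peak in all 4 libraries was linked to 51 of these 256 X-linked genes and to 4257 of the 11736 autosomal genes. Rbm10, a splicing regulator related to Rbm5, had heights of 17.7 and 8.44 in the males against 20.5 and 19.3 in the females, and Rbmx had 10.6 and 4.41 against 21.0 and 12.3. Relative to the median difference of all genes, the X-linked splicing genes had a median of -0.06 and all X-linked genes 0.02, male minus female. These values were looked at after the data were seen and have no test.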
